A study of Mus musculus with 10 samples.

Results

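Amino acid supply genes, 9 in number, were examined in CD8+ T cells that had been cultured with 4T1 cells, a cell line from a mouse mammary carcinoma. They were chosen by name and comprise 8 transporters of the plasma membrane (Slc7a5, Slc3a2, Slc1a5, Slc1a4, Slc38a1, Slc38a2, Slc7a1 and Slc7a6) and glutaminase 2 (Gls2). They are 9 of the 57825 genes in the deposited table, each listed in 1 row, and all 9 passed the filter on low values. The study compared 5 samples of co-cultured CD8+ T cells without sodium acetate (CD8+4T1) with 5 samples treated with 5 mM sodium acetate (CD8+4T1+NaAc), to learn how acetate alters T cells in contact with tumor cells. Both groups came from spleens of female Balb/c mice, for which the methods give 7 to 8 weeks of age. The cells of both groups were activated for 12 h on anti-CD3 with IL-2 and anti-CD28. They were then kept for 24 h with or without NaAc and co-cultured for 48 h with the tumor cells, and the labels give day 3. CD8+ T cells had been isolated from the spleens with a magnetic bead kit before activation. RNA came from purified CD8+ T cells, and the sources do not say whether these were purified again after the co-culture. The labels do not say whether the 5 samples of a group were separate animals or cultures, so p-values measure the spread between these samples only.

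Activated T cells import large amounts of amino acids to grow and divide. The large neutral amino acid transporter LAT1 is a dimer of a transport subunit, encoded by Slc7a5, and a heavy chain, encoded by Slc3a2, that carries it to the cell surface, and it brings in leucine and other essential amino acids in exchange for glutamine. Glutamine itself enters through ASCT2 (Slc1a5) and through the sodium-coupled transporters SNAT1 (Slc38a1) and SNAT2 (Slc38a2), and glutaminases convert it to glutamate in mitochondria.

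The unit is FPKM, which scales the fragments of a gene to its length in kilobases and to a fragment total of its sample. The totals recovered from the FPKM were 16306447 to 17443395 fragments per CD8+4T1 sample and 16503701 to 18853726 per CD8+4T1+NaAc sample. Whether they count sequenced or mapped fragments is not given in the sources used here. The listed genes held 95.46% to 97.87% of these fragments in CD8+4T1 and 89.85% to 92.07% in CD8+4T1+NaAc, and the summed FPKM was lower in every treated sample (282994.6 to 295927.8 against 310964.6 to 335151.4). Replicate 1 of CD8+4T1+NaAc stood apart with 20233 genes above 0, against 24681 to 25088 in the other treated samples. Replicate 1 of CD8+4T1 was also the lowest of its group, with 22291 against 23786 to 24054 in the other untreated samples. The defining markers of the labelled cell type were present, Cd8a (78.6 ± 2.34 FPKM in CD8+4T1 and 76.5 ± 4.37 in CD8+4T1+NaAc, SD, n = 5) and Cd3e (33.8 ± 1.07 and 26.3 ± 2.06). Of 16 T cell markers, all tested, 7 were lower and 1 higher in CD8+4T1+NaAc (against 19.0% and 17.6% of all genes tested), with a summed level there of 1161 to 1341 FPKM against 1304 to 1437 in CD8+4T1. With all samples rescaled to an equal total FPKM, 5 of these markers were lower and 5 higher (against 8.83% and 31.2%). Of 20 epithelial and 4T1 markers 12 were tested and 9 of these were higher in CD8+4T1+NaAc, with a summed level of 176 to 331 FPKM against 63.5 to 80.7. Of these 9, 3 had a mean under 0.5 FPKM in CD8+4T1 and passed the filter through the treated group only. Krt8 rose from 3.42 ± 1.69 to 34.2 ± 13.1 FPKM and Lcn2 from 3.99 ± 1.47 to 40.2 ± 16.4, whereas Epcam, a defining epithelial marker, was at 0.519 ± 0.229 and 0.699 ± 0.179 FPKM (limma adjusted p = 0.305) and Krt6a was listed at 0 in every sample. Of 14 myeloid markers 7 were tested and 4 were higher, 2 of which passed the filter through the treated group only, with a summed level of 50.9 to 59.4 FPKM against 38.4 to 49.7, and S100a9 was listed at 0 in every sample. Of 8 markers of CD4 T cells, regulatory T cells and NK cells 3 were tested and 1 was higher, Cd4 (0.541 ± 0.169 against 1.6 ± 0.187 FPKM), and of 8 B cell markers 3 were tested and 0 called in limma (also 0 at an unadjusted p under 0.05 and 0 with voom, but 2 higher without replicate 1 of CD8+4T1+NaAc). The part of other cells in the results on the 9 genes was not tested.

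The transporter genes Slc1a5, Slc38a1 and Slc7a5 were lower in CD8+4T1+NaAc, by 29.7%, 18.1% and 15.6% of their mean FPKM. The call of Slc1a5 was kept under every scaling of the samples tried, whereas those of Slc38a1 and Slc7a5 were lost when samples were rescaled to an equal total or to T cell markers. The other 6 genes did not pass the test and 0 of the 9 were higher in limma (also 0 at an unadjusted p under 0.05 and 0 with voom on the recovered fragments). Across all 15710 genes tested, limma called 36.5% in either direction at an adjusted p under 0.05, 19.0% lower and 17.6% higher, and the 3 of 9 called lower are to be read against these shares. The groups did not overlap for the same 3 genes, which was the case for 13.3% of all genes in this direction. Over the 9 genes the median log2 fold change was -0.12, against -0.02 over the genes tested. In bulk RNA, fewer cells of a type and less RNA per cell cannot be told apart.

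**Figure D1:**
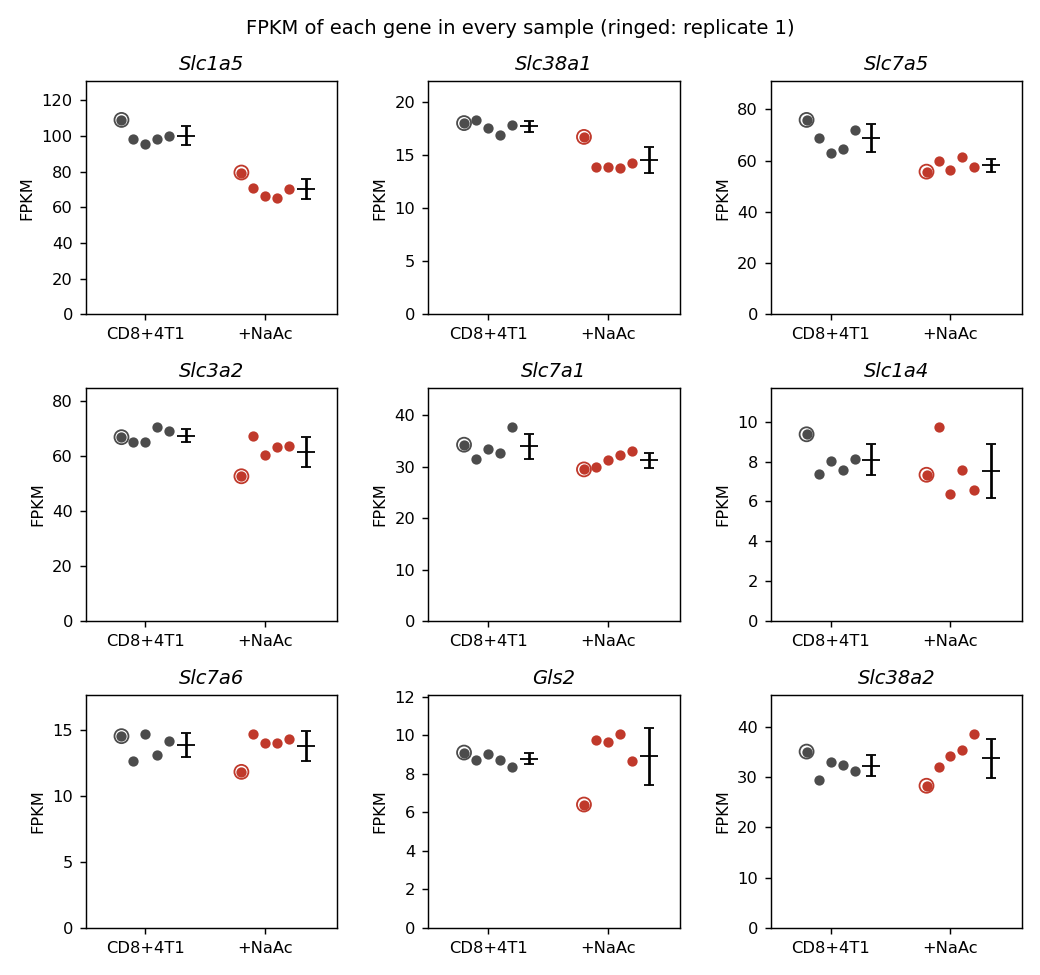
FPKM (linear axis from 0) of each of the 9 genes in the 5 CD8+4T1 samples (grey) and the 5 CD8+4T1+NaAc samples (red, labelled +NaAc), with the mean and SD of each group beside the points and replicate 1 ringed. The groups are separate for Slc1a5, Slc38a1 and Slc7a5, and replicate 1 of CD8+4T1+NaAc is the highest of its group for Slc38a1 and the lowest for Slc7a6 and Gls2.

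Slc1a5 (ENSMUSG00000001918, listed on chromosome 7 from 16515265 to 16532199, plus strand) encodes ASCT2, a sodium-dependent exchanger of small neutral amino acids and glutamine. It had 109, 98.5, 95.4, 98.2 and 99.7 FPKM in replicates 1 to 5 of CD8+4T1 and 79.5, 70.6, 66.4, 65.2 and 70.5 FPKM in those of CD8+4T1+NaAc. Every treated sample was below every untreated one, and replicate 1 was the highest of each group. The means were 100.2 ± 5.28 and 70.4 ± 5.63 FPKM (SD, n = 5), which gives a log2 fold change of -0.51 (standard error 0.06, 95% interval -0.65 to -0.37, limma adjusted p = 0.000148). Its values rest on 4572 to 7618 fragments per sample. With each sample left out in turn the log2 fold change was between -0.56 and -0.48.

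The close relative Slc1a4 (ENSMUSG00000020142, chromosome 11 from 20252180 to 20282713, minus strand) encodes ASCT1, which carries serine, alanine and other small neutral amino acids. It had 9.37, 7.39, 8.01, 7.59 and 8.12 FPKM in CD8+4T1 and 7.34, 9.75, 6.36, 7.57 and 6.60 FPKM in CD8+4T1+NaAc. The groups overlapped, replicate 2 of CD8+4T1+NaAc having the highest value of all. The log2 fold change was -0.12 (standard error 0.11, 95% interval -0.37 to 0.13, limma adjusted p = 0.459), from 412 to 722 fragments per sample. Within each sample, the log2 ratio of Slc1a5 to Slc1a4 does not depend on how samples are scaled. It was 3.54, 3.74, 3.57, 3.69 and 3.62 in CD8+4T1 and 3.44, 2.85, 3.38, 3.11 and 3.42 in CD8+4T1+NaAc. Every treated sample lay below every untreated one, with a mean difference of -0.39 (exact permutation test, two-sided, p = 0.00794, adjusted p = 0.0317 over 4 ratios), so that the mean ratio of FPKM went from 12.4 to 9.56. The smallest p that 5 samples against 5 allow is 0.00794. With 4 samples against 5 it is 0.0159, which cannot stay under 0.05 after adjustment over 4 ratios unless another ratio also passes. When single samples were left out, the call was lost 9 of 10 times (adjusted p = 0.0635) and kept without replicate 1 of CD8+4T1+NaAc (-0.44, adjusted p = 0.0317).

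Of the sodium-coupled neutral amino acid transporters, Slc38a1 (ENSMUSG00000023169, chromosome 15 from 96469299 to 96540794, minus strand) encodes SNAT1. It had 18.0, 18.3, 17.5, 16.9 and 17.8 FPKM in CD8+4T1 and 16.7, 13.9, 13.9, 13.8 and 14.2 FPKM in CD8+4T1+NaAc. All treated samples were below all untreated ones, but replicate 1 of CD8+4T1+NaAc lay close to the untreated samples and apart from the other 4. The means were 17.7 ± 0.538 and 14.5 ± 1.21 FPKM (SD, n = 5), which gives a log2 fold change of -0.29 (standard error 0.06, 95% interval -0.42 to -0.16, limma adjusted p = 0.00291). It was -0.11 (adjusted p = 0.225) with the same total and -0.13 (adjusted p = 0.269) with scaling to T cell markers, without a call. Without replicate 1 of CD8+4T1+NaAc the treated mean was 14.0 ± 0.164 FPKM. Fragments of 1 antisense long noncoding RNA that overlaps the gene amounted to 0.371% of those of Slc38a1.

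Slc38a2 (ENSMUSG00000022462, chromosome 15 from 96585273 to 96597611, minus strand) encodes SNAT2, which cells are known to raise when amino acids are short, and is listed on the same chromosome and strand as Slc38a1. It had 35.1, 29.5, 33.1, 32.4 and 31.3 FPKM in CD8+4T1 and 28.3, 32.1, 34.2, 35.4 and 38.7 FPKM in CD8+4T1+NaAc. The groups overlapped, with replicate 1 of CD8+4T1+NaAc the lowest and replicate 5 the highest of all 10. The log2 fold change was 0.06 (standard error 0.08, 95% interval -0.12 to 0.24, limma adjusted p = 0.622), and 0.12 (adjusted p = 0.165) without replicate 1 of CD8+4T1+NaAc. With the same total it was 0.23 (adjusted p = 0.0474) and with T cell markers 0.21 (adjusted p = 0.0325), called higher in both. The log2 ratio of Slc38a1 to Slc38a2 was -0.96, -0.69, -0.92, -0.94 and -0.82 in CD8+4T1 and -0.76, -1.20, -1.30, -1.36 and -1.45 in CD8+4T1+NaAc. Replicates 2 to 5 of CD8+4T1+NaAc were below every untreated sample and replicate 1 was above 4 of them. The mean difference of -0.35 did not pass the threshold after adjustment (exact permutation test, two-sided, p = 0.0397, adjusted p = 0.0794), and without that sample it was -0.46 (adjusted p = 0.0317).

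**Figure D2:**
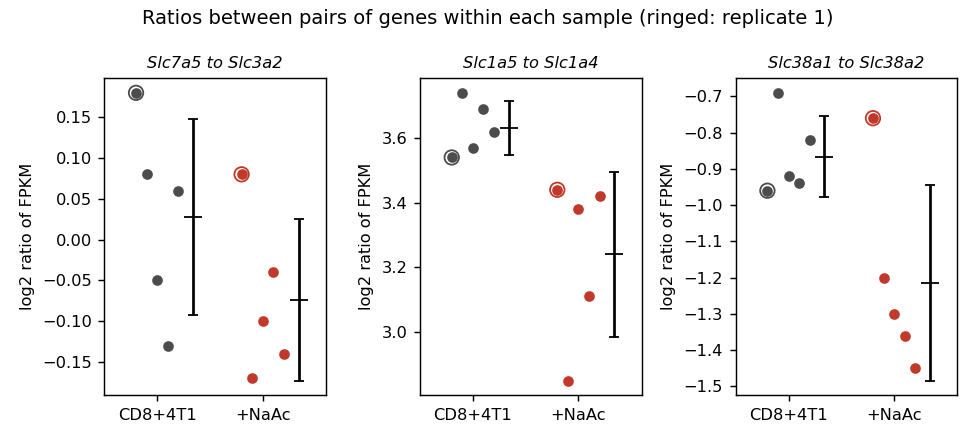
Log2 ratio of FPKM of 3 gene pairs within each sample, CD8+4T1 in grey and CD8+4T1+NaAc in red, with mean and SD (n = 5) beside the points and replicate 1 ringed. Each panel has its own axis range. Slc1a5 to Slc1a4 is lower in all 5 treated samples, and in Slc38a1 to Slc38a2 replicate 1 of CD8+4T1+NaAc lies apart from the other treated samples.

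Slc7a5 (ENSMUSG00000040010, chromosome 8 from 122607889 to 122634433, minus strand), the transport subunit of LAT1, had 75.9, 69.0, 62.9, 64.6 and 72.0 FPKM in CD8+4T1. In CD8+4T1+NaAc it had 55.7, 59.7, 56.2, 61.3 and 57.7 FPKM. The groups did not overlap, although the highest treated sample (replicate 4) and the lowest untreated one (replicate 3) were close. The means were 68.9 ± 5.33 and 58.1 ± 2.35 FPKM (SD, n = 5), which gives a log2 fold change of -0.24 (standard error 0.06, 95% interval -0.37 to -0.11, limma adjusted p = 0.00820). With each sample left out in turn the adjusted p was between 0.00647 and 0.0239, but the call ended with the same total (-0.06, adjusted p = 0.506) and with scaling to T cell markers (-0.08, adjusted p = 0.454).

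Its heavy chain Slc3a2 (ENSMUSG00000010095, chromosome 19 from 8684246 to 8700733, minus strand), also known as CD98 and shared by several SLC7 transporters, had 66.8, 65.1, 65.1, 70.6 and 69.1 FPKM in CD8+4T1. In CD8+4T1+NaAc it had 52.6, 67.2, 60.3, 63.2 and 63.6 FPKM. Replicate 2 of CD8+4T1+NaAc lay within the untreated range and the other 4 treated samples were below it. The log2 fold change was -0.14 (standard error 0.06, 95% interval -0.28 to 0.01, limma adjusted p = 0.121), and -0.08 (adjusted p = 0.154) without replicate 1 of CD8+4T1+NaAc. The log2 ratio of Slc7a5 to Slc3a2 was near 0 in both groups, 0.03 ± 0.12 and -0.07 ± 0.10 (SD, n = 5), with overlapping samples and a difference of -0.10 (exact permutation test, two-sided, p = 0.175, adjusted p = 0.233). The transcripts of the subunits were thus at like levels per length in every sample, the ratio ranging from -0.17 to 0.18.

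Slc7a6 (ENSMUSG00000031904, chromosome 8 from 106895489 to 106925338, plus strand) encodes y+LAT2, another partner of the CD98 heavy chain, which exchanges cationic for neutral amino acids. It had 14.5, 12.6, 14.7, 13.1 and 14.1 FPKM in CD8+4T1 and 11.8, 14.7, 14.0, 14.0 and 14.3 FPKM in CD8+4T1+NaAc. Replicate 1 of CD8+4T1+NaAc was the lowest of all 10 and replicate 2 the highest by a narrow margin, while the other treated samples lay within the untreated range. The mean was 13.8 FPKM in both groups (SD 0.885 and 1.12, n = 5) and the 95% interval of the log2 fold change ran from -0.16 to 0.15 (limma adjusted p = 0.972).

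The cationic amino acid transporter Slc7a1 (ENSMUSG00000041313, chromosome 5 from 148264220 to 148336714, minus strand), also called CAT1, takes up arginine and lysine. It had 34.3, 31.6, 33.4, 32.7 and 37.8 FPKM in CD8+4T1 and 29.5, 29.9, 31.4, 32.3 and 33.1 FPKM in CD8+4T1+NaAc. The ranges overlapped, with 3 treated samples below every untreated one. The log2 fold change of -0.12 (standard error 0.06, 95% interval -0.24 to 0.01) did not pass the threshold (limma adjusted p = 0.127).

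Gls2 (ENSMUSG00000044005, chromosome 10 from 128030326 to 128045873, plus strand), a mitochondrial glutaminase best known from liver, had 9.11, 8.70, 9.06, 8.73 and 8.37 FPKM in CD8+4T1. In CD8+4T1+NaAc it had 6.41, 9.74, 9.65, 10.1 and 8.67 FPKM. Replicate 1 of CD8+4T1+NaAc was the lowest of all 10, and 3 other treated samples were above every untreated one. The log2 fold change was 0.00 (standard error 0.11, 95% interval -0.24 to 0.24, limma adjusted p = 0.998) from 381 to 638 fragments per sample, and without that replicate it was 0.11 (adjusted p = 0.116). Its listed position overlaps that of Spryd4 on the opposite strand, with fragments amounting to 35.6% of those of Gls2, and of the long noncoding RNA Gm52965 on the same strand, with 14.2%. The strand setting of the counting is not given in the sources used here, so reads could have been placed with either gene.

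In order of level, Slc1a5 led in every sample. In CD8+4T1 it was followed by Slc7a5 and Slc3a2, whose ranges overlapped, then Slc7a1 and Slc38a2, which also overlapped, then Slc38a1, Slc7a6 and last Gls2 and Slc1a4, which overlapped. By mean FPKM in CD8+4T1, Slc1a5 was at rank 449 of the 15710 genes tested and Slc1a4 at rank 5920. Their ranks in CD8+4T1+NaAc were 602 and 6219. In CD8+4T1+NaAc the lead of Slc1a5 was narrower. Its mean was 1.15 times that of the gene next to it, Slc3a2, against 1.46 times that of Slc7a5 in CD8+4T1, and the ranges of Slc1a5 and Slc3a2 overlapped although Slc1a5 was the higher in 5 of 5 samples. Slc38a1 exceeded Slc7a6 in 5 of 5 CD8+4T1 samples with separate ranges, and in 1 of 5 CD8+4T1+NaAc samples, where the ranges overlapped.

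The FPKM of the 8 transporters summed to 342 ± 14.0 in CD8+4T1 and 291 ± 8.21 in CD8+4T1+NaAc (SD, n = 5). The sums did not overlap between the groups, at 330.1 to 363 against 281 to 299. The total FPKM of all listed genes did not overlap either, at 310964.6 to 335151.4 against 282994.6 to 295927.8. The lower transporter sum is to be read against that. As the genes were chosen with results known, no p is given for the sum or the shares. The p-values given above for these genes and their ratios carry the same limit. Slc1a5 made up 28.5% to 30.1% of the sum in CD8+4T1 and 22.3% to 28.3% in CD8+4T1+NaAc, a difference in mean share of -5.02 percentage points. Slc38a2 had a larger share, from a mean of 9.44 ± 0.496% to 11.6 ± 1.17%, a difference of 2.15 percentage points. For Slc1a5 and Slc38a2 the shares of the groups did not overlap, although replicate 1 of CD8+4T1+NaAc lay next to the untreated samples in each. Shares of a sum are tied, so a fall of Slc1a5 raises the others, and the deposited FPKM of Slc38a2 was not called. The mean shares of Slc3a2, Slc7a1, Slc7a6 and Slc1a4 also rose, by 1.4, 0.827, 0.702 and 0.223 percentage points, with overlapping groups. That of Slc38a1 differed by -0.179. Slc7a5 held the same share within the spread, 20.1 ± 0.896% and 20 ± 0.586%.

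The summed FPKM differed between the groups, and the scaling of the samples bears on these fold changes. When all samples were rescaled to an equal total FPKM, the median over the genes tested moved from -0.02 to 0.15 on the log2 scale, and 77.9% of the called genes were higher, against 48.1% as deposited. Scaled instead to the T cell markers, the median was 0.14 and 76.6% of the called genes were higher. With median-ratio scaling all 3 calls were kept, at -0.53 for Slc1a5, -0.31 for Slc38a1 and -0.26 for Slc7a5 (limma adjusted p = 0.000105, 0.00177 and 0.00567). With the same total and with T cell markers Slc1a5 stayed lower, with log2 fold changes of -0.33 (limma adjusted p = 0.0042) and -0.35 (limma adjusted p = 0.0124). Of all genes, 8.83% were called lower and 31.2% higher with the same total, and 8.42% and 27.5% with T cell markers, and of the 9 genes 1 was lower and 1 higher under each. As given above, Slc7a5 and Slc38a1 lost their calls under both and Slc38a2 gained one as higher. Slc3a2, Slc7a1 and Slc1a4 turned from below to above 0 without a call, at 0.02 to 0.06, and Slc7a6 stood at 0.17 and 0.15 and Gls2 at 0.18 and 0.16, also without a call.

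**Figure D3:**
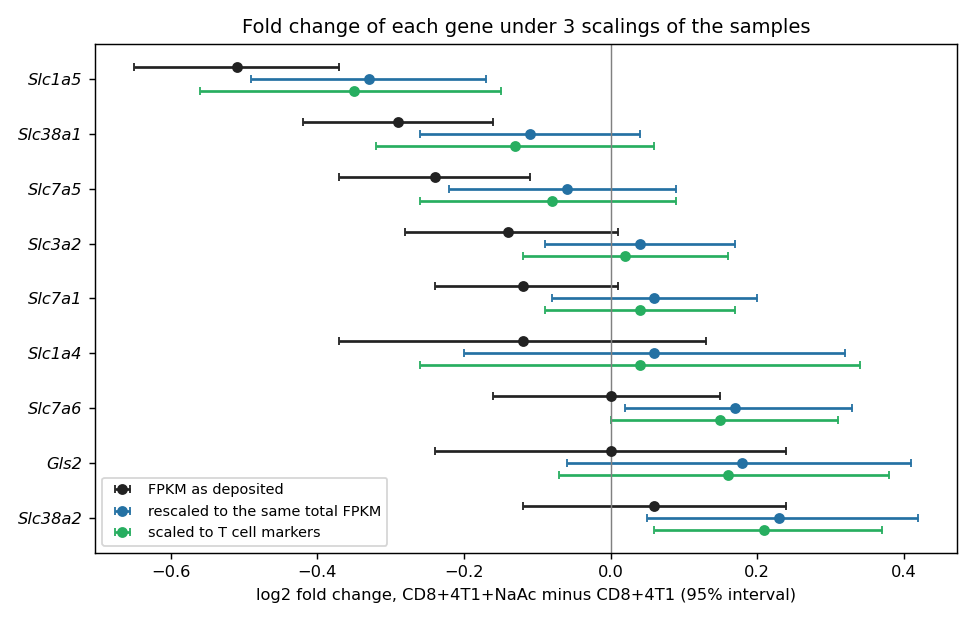
Log2 fold change (CD8+4T1+NaAc minus CD8+4T1, dots) of each of the 9 genes with its 95% interval (bars), as deposited (black), rescaled to the same total FPKM (blue) and scaled to T cell markers (green). The intervals of Slc1a5 lie below 0 under all 3 scalings, those of Slc38a1 and Slc7a5 only as deposited, and all values shift upward under the other two scalings.

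The genes whose variation between samples was most like that of Slc7a5 were sought among 7052 protein-coding genes whose mean was 5 FPKM or more. Likeness was the Pearson correlation of deviations from the group means over the 10 samples, which share depth and scaling, and is a description only. The closest were Orc1 (r = 0.96), a subunit of the origin recognition complex, Wasl (0.92), an activator of actin assembly, and Hps6 (0.91), of lysosome-related organelle formation, followed by Amigo3 (0.87) and Id2 (0.87). The order of the other 8 genes rested on replicate 1 of CD8+4T1+NaAc. With it Slc1a4 came nearest (r = 0.51, rank 535), and without it Slc1a5 did, going from 0.20 to 0.63, while Slc38a1 went from -0.06 to 0.52. The partner subunit Slc3a2 had r = 0.32 at rank 1513, and 0.18 without that library.

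Promoter windows from 250 bases before to 50 bases after the listed start, from RefSeq on build GRCm38.p6, were at hand for Slc3a2, Slc1a4, Slc38a2, Slc7a1 and Slc7a6 (5 of 9 genes, 7 windows). No entry was matched for Slc7a5, Slc1a5, Slc38a1 and Gls2. The windows were searched on both strands for CACGTG, the E-box that MYC and MAX can bind, for TGATGNAA, the core of the composite element that ATF4 and C/EBP proteins can bind, and for GGGCGG, the GC box. The composite core was found in Slc1a4 only, beginning 4 bases before the start and running across it, and in 3.97% of all 32851 windows of this length. GC boxes were found in all 5 genes and in 35.7% of all windows, and the E-box in none of the 5 and in 7.15% of all windows. These percentages are over windows, whereas the counts are over genes. A further window of Slc7a1 held no match, and the windows of Slc7a6 share their GC box. Overlaps between motifs did not occur in the stretches printed, which are shown because they hold the composite core and the GC box nearest before a start. The GC boxes lie 22 bases before the start in Slc3a2, 35 in Slc38a2, 36 in Slc7a1, 47 in Slc1a4 and 57 before the downstream of the starts listed for Slc7a6. Each stretch is written 5′ to 3′ along the strand of its gene, which is minus but for Slc7a6, with the match in capitals. The composite core of Slc1a4 lies in chr11:20332700-20332727, its GC box in chr11:20332745-20332770, and the GC boxes of Slc3a2 in chr19:8713904-8713929, of Slc38a2 in chr15:96699748-96699773, of Slc7a1 in chr5:148399925-148399950 and of Slc7a6 in chr8:106168854-106168879. A match is a description of letters and not a bound site.
Slc1a4 composite core: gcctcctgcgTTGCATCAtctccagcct
Slc1a4 GC box: agctcaagccCCGCCCtccttcctag
Slc3a2 GC box: aggcggaccgGGGCGGagtcctgggt
Slc38a2 GC box: cgcccgcgccCCGCCCactgacgcgg
Slc7a1 GC box: tcgggtgtccCCGCCCacaggggcgc
Slc7a6 GC box: gacgtggcgtGGGCGGggcttgagcg

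The remaining genes of amino acid transport, use and sensing were taken from lists and are described by their counts. The background for these is 36.5% of all genes called as deposited, and for the counts with the same total it is 31.2% called higher and 8.83% lower. Of 35 other plasma membrane amino acid transporters, 10 were above the filter, 2 were higher and 2 lower, with a median log2 fold change of -0.01, and with the same total 5 were higher and 1 lower. Slc7a3, a second cationic amino acid transporter (CAT3), had the largest fall, from 12.1 ± 1.02 to 5.53 ± 0.371 FPKM (log2 fold change -1.12, standard error 0.07, limma adjusted p = 9.29e-06). Slc1a2, a glutamate transporter, fell from 3.5 ± 0.21 to 2.48 ± 0.497 FPKM (-0.50, adjusted p = 0.0124), a call lost with the same total (-0.33, adjusted p = 0.0819). Slc7a11, the cystine and glutamate exchanger xCT, rose from 1.22 ± 0.217 to 3.25 ± 0.835 FPKM (1.32, standard error 0.18, adjusted p = 0.000269). Slc43a2, a facilitated transporter of large neutral amino acids, rose from 2.13 ± 0.268 to 2.63 ± 0.158 FPKM (0.30, adjusted p = 0.0395, and 0.0552 without replicate 1 of CD8+4T1+NaAc). Slc7a3 and Slc7a11 thus moved in opposite directions and by more than any of the 9 genes. Of the 35, 6 were listed at 0 in every sample.

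Of 17 genes listed as transporters of lysosome and mitochondria 16 were tested, and where their proteins lie was not examined. In limma 4 were higher and 0 lower (also 0 lower at an unadjusted p under 0.05 and 0 with voom), and the median was 0.13. With the same total 6 were higher and 0 lower in limma. The lysosomal amino acid and proton symporter Slc36a1 rose from 1.3 ± 0.167 to 1.95 ± 0.174 FPKM (0.56, limma adjusted p = 0.00377) and Slc38a10 from 19.9 ± 1.08 to 25.6 ± 1.51 FPKM (0.36, adjusted p = 0.000549). Slc25a18, a mitochondrial glutamate carrier, was at 0.326 ± 0.103 and 0.772 ± 0.373 FPKM, from 6 to 43 fragments per sample. It is 1 of the 4 but passed the filter through the treated group only, so no test is given.

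Of 22 further enzymes that make or use glutamine and glutamate 21 were tested, with 4 higher and 4 lower and a median of -0.07. Gclm, the modifier subunit of glutamate-cysteine ligase in glutathione synthesis, rose from 2.75 ± 0.432 to 7.60 ± 1.71 FPKM (1.42, limma adjusted p = 9.38e-05). Ctps2, a CTP synthase that takes its nitrogen from glutamine, rose by 0.67 (adjusted p = 0.00684) and the mitochondrial aspartate transaminase Got2 by 0.21 (adjusted p = 0.0451). The falls were led by Gfpt1, the glutamine-using first enzyme of the hexosamine pathway, from 14.0 ± 0.682 to 10.3 ± 0.514 FPKM (-0.44, adjusted p = 0.000130). Psat1 of serine synthesis (-0.37, adjusted p = 0.0121, and -0.20 with adjusted p = 0.115 at the same total) and the cytosolic transaminase Got1 (-0.34, adjusted p = 0.000157) followed. Glul, glutamine synthetase, was at 16.7 ± 1.62 and 16.9 ± 1.69 FPKM (0.02, adjusted p = 0.888). The transaminases Got1 and Got2 thus differed in direction, and with the same total the list had 8 genes higher and 2 lower.

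The mTORC1 kinase complex senses leucine, arginine and other amino acids at the lysosome. Of 36 genes of this machinery 35 were tested, 8 were higher and 5 lower, with a median of 0.12. Without replicate 1 of CD8+4T1+NaAc these counts were 13 and 7, where 44.3% of all genes were called against 36.5% with it. Deptor, an inhibitor of mTOR, was at 0.0998 ± 0.0525 and 1.09 ± 0.301 FPKM, from 7 to 243 fragments per sample. It is 1 of the 8 but passed the filter through the treated group only, so no test is given. Fnip2 of the folliculin complex rose by 0.67 (limma adjusted p = 0.0112) and Sesn1, a sestrin, by 0.47 (adjusted p = 0.00494). The leucine sensor Sesn2 fell from 51.3 ± 5.27 to 38.1 ± 1.38 FPKM (-0.42, adjusted p = 0.000753), as did the Ragulator subunits Lamtor5 (-0.42, adjusted p = 0.00200) and Lamtor2 (-0.35, adjusted p = 0.00966). Lamtor2 lost its call at the same total (-0.18, adjusted p = 0.0845), and Lamtor5 when scaled to T cell markers (-0.26, adjusted p = 0.0719). The sestrin genes differed in direction, and with the same total the counts were 16 higher and 3 lower. Of 11 genes of branched-chain amino acid breakdown, all tested, 2 were higher and 2 lower (median 0.08, and 5 higher and 0 lower with the same total). With voom on the recovered fragments 1 was higher and 2 were lower. Bckdk, the kinase that restrains this breakdown, rose by 0.59 (adjusted p = 0.000101) and Bckdha, a subunit of the enzyme it acts on, by 0.33 (adjusted p = 0.0427), whereas Bcat1 fell by 0.33 (adjusted p = 0.0223) and Dbt by 0.18 on the log2 scale (adjusted p = 0.00685). At the same total neither fall passed the test (adjusted p = 0.244 for Bcat1 and 0.986 for Dbt).

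Of 13 regulators and stress genes that have been linked to the expression of amino acid transporters, all tested, 3 were higher and 7 lower, with a median of -0.29, and with the same total 4 were higher and 5 lower. Myc, a known activator of Slc7a5 and Slc1a5 in T cells, was at 72.4 ± 6.28 and 80.8 ± 6.37 FPKM (0.16, limma adjusted p = 0.112) and was called higher with the same total (0.34, adjusted p = 0.00848). Atf4, which drives amino acid transporter genes in the response to amino acid shortage, was at 153 ± 7.67 and 139 ± 21.3 FPKM (-0.15, adjusted p = 0.285). The transcripts of both regulators thus overlapped between the groups. The largest falls were those of Cebpg, a partner of ATF4, from 14.8 ± 0.905 to 8.10 ± 1.62 FPKM (-0.88, adjusted p = 0.000293), of Ddit4, an inhibitor of mTORC1, from 325 ± 34.2 to 198 ± 20 FPKM (-0.71, adjusted p = 0.000176), and of Trib3 (-0.62, adjusted p = 0.00101). The rises were those of Cebpb, from 13.4 ± 2.61 to 40.6 ± 10.3 FPKM (1.57, adjusted p = 0.000162), of Chac1, a glutathione-degrading enzyme (0.86, adjusted p = 0.00268), and of Eif2ak4, the GCN2 kinase that senses uncharged tRNA (0.44, adjusted p = 0.000443). Each of these 6 kept its call under both scalings.

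**Figure D4:**
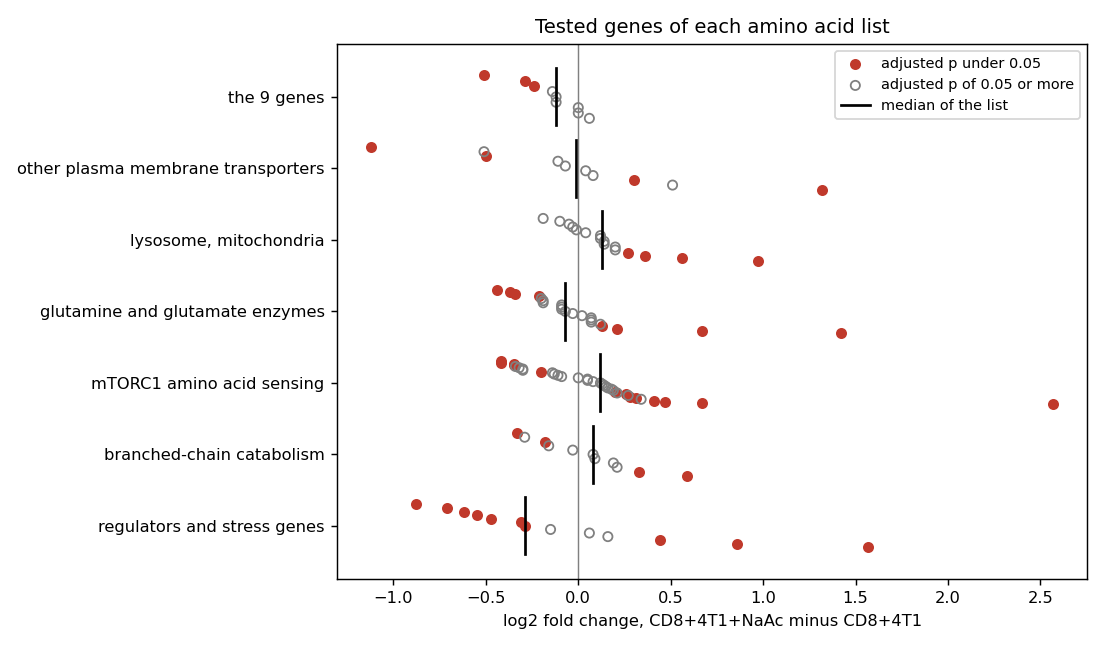
Log2 fold change (CD8+4T1+NaAc minus CD8+4T1) of every tested gene of the 9 and of 6 related lists, filled red where the limma adjusted p is under 0.05, with the median of each list as a bar. The 9 genes lie between -0.51 and 0.06. The dot at 2.57 is Deptor, which passed the filter on low values through the treated group only. The same holds for Slc25a18, the filled dot at 0.97 among the genes of lysosome and mitochondria.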

How the data were processed

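RNA sequencing of purified CD8+ T cells after co-culture with 4T1 cells covered 2 groups of 5 samples, assigned by the sample titles. The authors prepared libraries with a NEBNext Ultra kit and sequenced them on a NovaSeq instrument. The submitters' processing notes name fastp, HISAT2 2.0.5, StringTie 1.3.3b and featureCounts 1.5.0-p3, and the genome build and strand setting are not given in the sources used here. The authors deposited FPKM for each gene and sample, not pooled, with gene length, an unnormalized other column, and positions. The positions are printed as listed; of 52125 gene IDs shared with GENCODE M21 (GRCm38), 1519 had the same start and end, and 0 of the 9 genes.

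FPKM times length came out as whole fragments (within 0.1) for 100% of values, which gave the totals of 16306447 to 18853726 fragments per sample. Since the deposited FPKM are normalized, the main test was not one for counts. For the 15710 genes whose mean reached 0.5 FPKM, log2(FPKM + 0.1) was fitted by group in limma 3.58.1 (R 4.3.3) with the trend and robust options, two-sided, with Benjamini-Hochberg adjustment over all of them. Fold changes on this scale understate those of low genes. Ratios were compared by exact permutation tests over 252 splits with scipy 1.17.1, with ratios adjusted over 4 of which 1 is not reported here. The fit was tried on simulated data of 5 against 5 samples. It called 76 of 96 genes changed by 2-fold and 64 of 99 changed by 1.5-fold. With a mean of at least 100 fragments these were 66 of 66 and 56 of 58. Of 15535 unchanged genes 5 were called. The simulation gave all genes a common level of spread and changed few of them. It held no outlying sample and no shift in summed FPKM, so it does not test the scaling of these data.

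The 9 genes and the lists were chosen with earlier results of these data known. Named were all 9, the called genes with the 3 largest rises and 3 largest falls of each list, Glul, Myc, Atf4, the 5 genes most like Slc7a5, and the markers Cd8a, Cd3e, Cd4, Krt8, Epcam and Lcn2; Krt6a and S100a9 are named as markers listed at 0. The labels do not say whether replicate numbers pair the samples, and the main fit took them as unpaired. Alternatives were pseudocounts of 1 and 0.01, no filter or one at 5 FPKM, scaling to an equal total, to median ratios or to T cell markers, limma with neither option, sample weights, a replicate block, voom on the recovered fragments, stricter thresholds, and samples left out.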

Additional observations from a re-analysis of the deposited data

Results flagged for a closer look

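Among 28 sets of 5 samples examined for a sample far from the rest, 2 had one, where chance gives about 1.4. In Slc38a1, replicate 1 of CD8+4T1+NaAc was the highest of its group, and its gap to the next sample was 0.856 of the group's range on the log2 scale, above the critical value of 0.71. In Slc7a6 the same library was the lowest of its group, with a gap of 0.779 of the range. This library also had the fewest genes above 0 FPKM of all 10 (20233).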

How the results depend on the processing

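Slc1a5 kept its direction and its call in all 22 alternative fits (log2 fold change -0.56 to -0.33). Slc38a1 and Slc7a5 kept theirs in 20 of 22 and lost the call when every sample was rescaled to the same total or to T cell markers, which left 1 of the 9 genes called lower and made 1 higher under each, where 31.2% and 27.5% of all genes were called higher. Under these scalings, in this order, Slc3a2 turned to 0.04 and 0.02, Slc1a4 and Slc7a1 each to 0.06 and 0.04, and Slc7a6 to 0.17 and 0.15. Slc7a6 was also above 0 with sample weights (0.03) and without replicate 1 of both groups (0.07), and Gls2 was -0.02 with median-ratio scaling; both lie near 0, at -0.03 to 0.05 and -0.05 to 0.11 with single samples left out. With an absolute log2 fold change over 1 also required, 0 of the 9 genes and 1016 of all genes were called, against 5742 by adjusted p alone, 3702 at an adjusted p under 0.01, 3733 where a mean of 5 FPKM was asked for and 4924 to 6930 with single samples left out.

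With the replicate block 3 members and 5399 genes in all were called; same-numbered samples did not deviate together (r = -0.028 to 0.069, own number the best match for 2 of 5). The ratio of Slc1a5 to Slc1a4 differed by -0.39 in the replicate block (adjusted p = 0.25, where the smallest raw p is 0.0625), by -0.47 without replicate 1 of both groups (adjusted p = 0.0571) and by -0.44 to -0.30 with single samples left out, where the smallest raw p is 0.0159. The ratio of Slc38a1 to Slc38a2 differed by -0.46 to -0.29 and the share of Slc7a5 by -0.37 to 0.0931 percentage points with single samples left out, and the last by 0.144 without replicate 1 of both groups. Slc1a4 and Gls2 had the fewest fragments, down to 412 and 381 in a sample.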
